A study of Mus musculus with 34 samples.

Results

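The set described here is 9 liver membrane transporters that move bile acids, organic anions and phospholipid between blood, hepatocyte and bile. They are Slc10a1, Slco1a1, Slco1a4, Slco1b2, Abcb11, Abcb4, Abcc2, Abcc3 and Abcc4, taken by their symbols from a table of 35976 gene symbols, and all 9 passed the filter on low values that left 19295 genes for testing. Total RNA of 34 mouse livers was sequenced, with 1 library per liver. The 5 knockout groups had received an adeno-associated virus (AAV) with a guide RNA against Bcl6 (5 livers), Irs1 (5 livers), Smyd2 (6 livers), Srebf1 (5 livers) or Tbx3 (7 livers). The control group was 6 livers given a guide against GFP (4 livers, sgGFP) or LacZ (2 livers, sgLacZ), genes that a mouse does not carry. Controls and knockouts alike were C57BL/6 mice, homozygous both for Cas9 under a tetracycline-responsive promoter (TetO-Cas9) and for the rtTA transactivator at the Rosa locus (Rosa-rtTA), and all ate a Western Diet for 3 months. Sex and age are not stated in the labels. Rosa-rtTA is not restricted to 1 cell type, and a guide delivered by virus edits some cells of an organ and not others, so each knockout liver can hold unedited cells. Each liver was taken as a separate animal from its number in the labels. Where livers share an animal, p-values measure the spread between samples only.

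Bile acids are made from cholesterol in hepatocytes, secreted into bile across the canalicular membrane, reabsorbed in the intestine and taken up again from portal blood. On the blood-facing (basolateral) membrane, the Slc10a1 product NTCP takes up conjugated bile acids together with sodium, and the OATP proteins of Slco1a1, Slco1a4 and Slco1b2 take up bile acids, hormones, drugs and bilirubin without sodium. On the canalicular membrane, the Abcb11 product BSEP pumps bile salts into bile, Abcb4 encodes the flippase MDR2 that supplies phosphatidylcholine to bile, and Abcc2 encodes MRP2, which exports bilirubin glucuronides and other conjugates. Abcc3 and Abcc4 encode MRP3 and MRP4, which pump bile acids and conjugates back into blood. In mouse liver, Slco1a1 is known as a male-predominant gene and Slco1a4 as a female-predominant one.

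In GRCm38 coordinates of the GENCODE M21 annotation, all 9 are protein-coding genes. The 3 Slco genes stand in 1 cluster on chromosome 6: Slco1b2 at chr6:141629518-141686646 on the plus strand, Slco1a4 at chr6:141805440-141856199 on the minus strand and Slco1a1 at chr6:141907282-141946962 on the minus strand. Slc10a1 lies at chr12:80953183-80968705 (minus), Abcb11 at chr2:69238282-69342616 (minus), Abcb4 at chr5:8893717-8959231 (plus) and Abcc2 at chr19:43782192-43840740 (plus). Abcc3 lies at chr11:94343295-94392997 (minus) and Abcc4 at chr14:118482692-118706219 (minus). Close relatives within the Slco1a and Abcb families may share reads. The strand setting of the counting is not given, so reads of overlapping or antisense transcripts may be included.

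Promoter sequences from RefSeq (GRCm38.p6, 250 bases before to 50 after a start) were found for 8 of the 9 genes, in 10 windows, since Slc10a1 and Abcc4 have 2 starts each. One window each of 4 genes is shown, because Slc10a1, Slco1a1 and Slco1b2 varied together from liver to liver, while Abcc4 was highest in the group where Slco1a1 was lowest. Each is given 5′ to 3′ on the gene's own strand. Capitals mark matches, on either strand, to TTCNNNGAA, a palindrome of the kind that BCL6 and STAT proteins bind, or to AGGTCA, the core element of nuclear receptor sites.
Slc10a1, chr12:80968656-80968955, minus strand: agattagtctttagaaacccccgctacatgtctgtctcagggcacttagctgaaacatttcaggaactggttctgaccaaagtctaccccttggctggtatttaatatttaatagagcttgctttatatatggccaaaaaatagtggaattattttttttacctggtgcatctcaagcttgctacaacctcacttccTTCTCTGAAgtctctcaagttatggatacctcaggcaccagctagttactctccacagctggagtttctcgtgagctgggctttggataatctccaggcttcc
Slco1a1, chr6:141946913-141947212, minus strand: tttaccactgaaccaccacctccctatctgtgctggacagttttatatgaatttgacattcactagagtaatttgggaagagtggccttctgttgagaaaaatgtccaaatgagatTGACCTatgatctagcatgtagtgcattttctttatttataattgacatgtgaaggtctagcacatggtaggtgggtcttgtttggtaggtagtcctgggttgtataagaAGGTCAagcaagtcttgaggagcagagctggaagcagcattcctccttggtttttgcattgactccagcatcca
Slco1b2, chr6:141629268-141629567, plus strand: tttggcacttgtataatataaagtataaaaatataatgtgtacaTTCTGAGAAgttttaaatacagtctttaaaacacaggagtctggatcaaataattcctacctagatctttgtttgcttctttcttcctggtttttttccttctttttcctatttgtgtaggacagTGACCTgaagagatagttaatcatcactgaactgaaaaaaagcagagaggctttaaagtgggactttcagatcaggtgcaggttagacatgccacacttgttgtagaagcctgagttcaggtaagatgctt
Abcc4, chr14:118706170-118706469, minus strand: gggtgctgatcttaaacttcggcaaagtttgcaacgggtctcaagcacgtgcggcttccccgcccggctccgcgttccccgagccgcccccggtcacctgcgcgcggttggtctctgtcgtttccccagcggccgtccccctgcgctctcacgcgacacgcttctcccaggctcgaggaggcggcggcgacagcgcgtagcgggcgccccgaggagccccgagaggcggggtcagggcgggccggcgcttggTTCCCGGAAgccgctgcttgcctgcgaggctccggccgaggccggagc
TTCNNNGAA was in 3 of the 10 windows (Abcc4, Slc10a1 and Slco1b2) and in 8.3% of 32851 mouse promoter windows of the same length. AGGTCA was in 5 of the 10 windows (Abcb11, Abcc2, Slc10a1, Slco1a1 and Slco1b2) and in 16.3% of all windows, and Slco1a1 held it at 2 places. The Slc10a1 match to AGGTCA is in that gene's other window, which is not shown. The T-box element AGGTGTGA, searched for in the same way, was in 0 of the 10 and in 1.28% of all windows. A match says that these letters are present, not that a factor binds there.

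The deposited unit is FPKM, a read count divided by transcript length and by library size, and the depth that it implies was 2110000 to 3130000 counted reads per library. Judged by the number of digits alone, the values of 8 of the 9 transporters look like sums over several transcripts and those of Slco1a1 like 1 value. Levels of different genes are therefore set side by side as an approximation. The 8 hepatocyte markers examined were detected in every group. None of the 5 targeted mRNAs passed the test in its own knockout, and Srebf1 came closest, with a log2 change of -1.06 ± 0.26 (SE, limma adjusted p = 0.0611). In their own knockouts Bcl6 changed by 0.05, Irs1 by 0.33, Smyd2 by -0.30 and Tbx3 by 0.45. A total of 3 libraries stood apart. The library labelled Srebf1 KO replicate 1 held 1908 FPKM of Srebf1, while the other 4 of its group held 499 to 632 and the controls 1095 to 2177. Smyd2 KO replicate 6 and Tbx3 KO replicate 7 were the livers whose profiles correlated below 0 with the rest of their own group. Member calls that changed when these libraries were left out are given both ways, and most other results only with all libraries. Leaving out all 3 together was an alternative chosen after the data were seen. In bulk tissue, fewer cells of a type and less RNA per cell cannot be told apart.

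With all libraries in the fit, Bcl6 KO and Irs1 KO livers showed the most changes in this set, and they stood on opposite sides of the controls at Abcc4. In Bcl6 KO livers the basolateral exporter Abcc4 and the uptake carrier Slco1a4 were higher than in controls, while the phospholipid flippase Abcb4 and the exporter Abcc3 were lower. In Irs1 KO livers the uptake carriers Slco1a1 and Slc10a1 and the bile salt pump Abcb11 were higher, while Abcc3 and Abcc4 were lower. Tbx3 KO livers had higher Abcb11 with lower Abcb4 and Abcc4. No member passed the test in Smyd2 KO or Srebf1 KO livers. Without the 3 libraries that stood apart, 6 members were called in Bcl6 KO, 5 in Irs1 KO and 5 in Tbx3 KO livers. Calls among all genes rose as well, to 1440, 2632 and 1664 in that order, from 1185, 2094 and 490. Slco1a1 then passed in Smyd2 KO livers too (2.41, limma adjusted p = 0.0401), where 23 genes were called. In Srebf1 KO livers no member passed, where 113 genes were called.

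Changes were tested with limma on log2(FPKM + 1), and a gene is called here where its p adjusted over all 19295 genes by the Benjamini-Hochberg method is under 0.05. In Bcl6 KO livers 4 of 9 members were called, 2 higher and 2 lower, against 6.14% of all genes (2.95% higher and 3.19% lower). In Irs1 KO livers 5 were called, 3 higher and 2 lower, against 10.9% of all genes (3.24% higher and 7.61% lower). In Tbx3 KO livers 3 were called, 1 higher and 2 lower, against 2.54% of all genes (1.17% higher and 1.37% lower). The Tbx3 KO counts depend on single livers: with 1 left out, 0 to 2 members were higher, 1 to 2 were lower, and 258 to 1471 genes were called in place of 490. The 1471 came without Tbx3 KO replicate 7, where 2 members were higher and 2 lower, and the 258 came without Tbx3 KO replicate 3 or sgGFP replicate 1. In Smyd2 KO livers 0 members were called in limma, against 0% of all genes, although 1384 genes had an unadjusted p under 0.05. In Srebf1 KO livers 0 members were called, against 0.378% of all genes, and 2519 genes had an unadjusted p under 0.05. The knockout and control livers did not overlap for 3 members in the Bcl6 comparison and 5 in the Irs1 comparison, against 4.27% and 7.45% of all genes. They overlapped for all 9 members in the Smyd2, Srebf1 and Tbx3 comparisons, where 0.347%, 1.95% and 0.829% of all genes did not overlap. The median log2 change of the 9 members was -0.26 in Bcl6 KO livers, 0.16 in Irs1 KO, 0.07 in Smyd2 KO, 0.19 in Srebf1 KO and 0.03 in Tbx3 KO, where the medians of all genes were -0.07, -0.12, -0.00, -0.05 and -0.06. These 5 comparisons share the same 6 control livers.

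**Figure D1:**
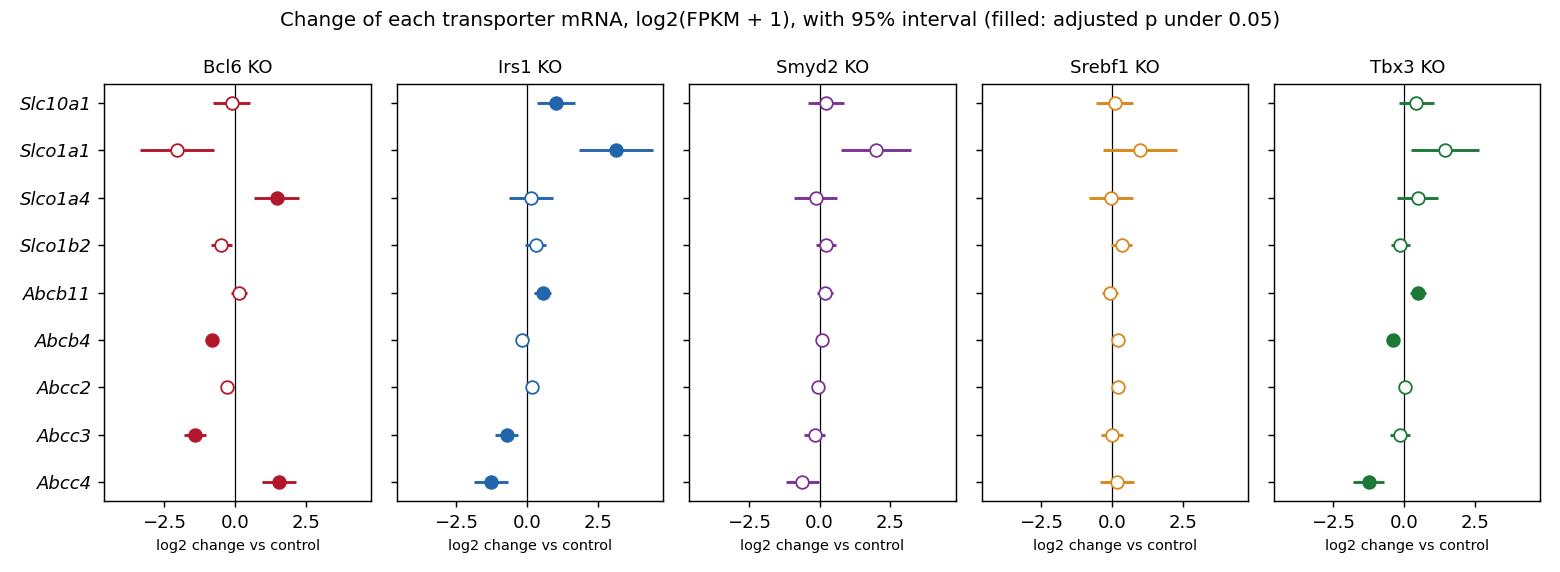
Log2 change of each transporter mRNA (rows) in each knockout against the 6 controls, on the log2(FPKM + 1) scale. Points are the limma estimates, lines their 95% intervals, and filled points have an adjusted p under 0.05; Slco1a1 has the widest intervals and spans -2.04 in Bcl6 KO to 3.12 in Irs1 KO.

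Slc10a1, the sodium-dependent bile acid carrier, had 1691, 2046, 1924, 1592 and 1921 FPKM in the 5 Irs1 KO livers. Control livers ranged from 432 to 1342 FPKM with a median of 982. Every Irs1 KO liver lay above every control liver. On the log2 scale this was a change of 1.02 ± 0.32 (SE) with a limma adjusted p of 0.0371, a 2.03-fold higher level. This call is marginal: leaving out 1 of the 11 livers at a time gave adjusted p from 0.0253 to 0.113, and the call was lost in 7 of the 11 cases, those without any 1 of the 5 Irs1 KO livers or without sgGFP replicate 1 or 3. It was also lost with no filter on low values (adjusted p = 0.0570). In Bcl6 KO livers Slc10a1 had 843, 673, 673, 949 and 1135 FPKM, which lay inside the control range, with a log2 change of -0.11 (95% interval -0.76 to 0.55). In Srebf1 KO livers the values were 1667, 970.0, 689, 791 and 926 FPKM, and the highest was replicate 1. Smyd2 KO livers ranged from 335 to 1727 FPKM with a median of 1294, and Tbx3 KO livers from 484 to 1534 with a median of 1452. The lowest Smyd2 KO and Tbx3 KO values belonged to replicates 6 and 7, the libraries that stood apart. Without replicate 7 the Tbx3 KO change was 0.65 and was not called (limma adjusted p = 0.145), against 0.43 (adjusted p = 0.477) with it. It passed when all 3 such libraries were left out, other groups' included (adjusted p = 0.0237).

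Slco1a1, the male-predominant organic anion carrier OATP1A1, was the most variable member, with 7.09 to 715 FPKM over the 34 livers. Irs1 KO livers held 614, 674, 510.4, 613 and 451 FPKM. Control livers held 35.6 to 258 FPKM with a median of 47.9. No Irs1 KO liver came as low as the highest control, sgLacZ replicate 1, and the log2 difference came to 3.12 ± 0.64 (SE; adjusted p = 0.00189, limma), an 8.72-fold higher level. Bcl6 KO livers held 7.09, 12.1, 14.6, 9.37 and 55.9 FPKM. In 4 of these 5 livers Slco1a1 was below every control, and replicate 5 was inside the control range. The log2 change of -2.04 ± 0.64 narrowly missed the threshold (limma adjusted p = 0.0504). It passed without Bcl6 KO replicate 5 (-2.51, adjusted p = 0.0151), without sgGFP replicate 3 (adjusted p = 0.0466) and without the 3 libraries that stood apart (adjusted p = 0.00714). It passed also with a pseudocount of 0.1 (-2.12, adjusted p = 0.0463), with a filter at 5 FPKM (adjusted p = 0.0431) and with the replicate number as a block (adjusted p = 0.0286). Over all cases with 1 liver left out the adjusted p ran from 0.0151 to 0.153. The transcript length used for this gene is not known, and the lowest value would correspond to 51.8 reads for a transcript of 2669 bases and to 75.8 reads for one of 3904 bases.

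In Smyd2 KO livers Slco1a1 ranged from 58.5 to 715 FPKM with a median of 367, and in Tbx3 KO livers from 33.7 to 463 with a median of 213. Both groups reached into the control range. Srebf1 KO livers held 508, 115, 54.0, 54.0 and 198 FPKM, and the 508 belonged to replicate 1. The log2 changes were 1.98 in Smyd2 KO (95% interval 0.74 to 3.23, limma adjusted p = 0.389), 1.43 in Tbx3 KO (0.23 to 2.62, adjusted p = 0.191) and 0.99 in Srebf1 KO (-0.32 to 2.29, adjusted p = 0.524). Without its own library that stood apart, the Smyd2 KO change was 2.41 and was not called (limma adjusted p = 0.109), the Tbx3 KO change was 1.82 (adjusted p = 0.0426) and the Srebf1 KO change 0.49 (adjusted p = 0.814). With all 3 such libraries left out, the same changes had adjusted p of 0.0401 in Smyd2 KO, 0.0139 in Tbx3 KO and 0.736 in Srebf1 KO livers. Between the control guides, sgGFP livers averaged 42.5 FPKM and sgLacZ livers 171 FPKM of Slco1a1, with a log2 difference of -1.78 that had an unadjusted p of 0.0495 and an adjusted p of 0.744 in limma. No member was called between the control guides, where 2 of all genes were.

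Slco1a4, the female-predominant carrier OATP1A4, had its highest levels in Bcl6 KO livers, at 668, 329.9, 751, 723 and 349 FPKM. Control livers ranged from 62.4 to 411 FPKM with a median of 253. Replicates 1, 3 and 4 of Bcl6 KO lay above every control and replicates 2 and 5 did not. On the log2 scale the difference was 1.47 ± 0.39 (SE), with a limma adjusted p of 0.0158. The call was lost without Bcl6 KO replicate 1 or 4, sgGFP replicate 2 or sgLacZ replicate 1, where the adjusted p was at most 0.0600. It was lost also against the 4 sgGFP livers alone (1.15, adjusted p = 0.0843) and in a fit of these 2 groups alone (adjusted p = 0.130). In the other knockouts Slco1a4 averaged 234 ± 108 (Irs1 KO, SD, n = 5), 176 ± 34.6 (Smyd2 KO, n = 6), 189 ± 35.8 (Srebf1 KO, n = 5) and 278 ± 93.6 FPKM (Tbx3 KO, n = 7), against 235 ± 139.9 FPKM in controls (n = 6). None of these 4 groups passed the test. Set against its neighbour in the Slco cluster, Slco1a4 exceeded Slco1a1 in 5 of 5 Bcl6 KO livers, by 6.24 to 94.3 times. It exceeded Slco1a1 in 0 of 5 Irs1 KO livers, where the ratio was 0.159 to 0.850, and in 5 of 6 control livers, with a median ratio of 4.54. It did so in 2 of 6 Smyd2 KO, 4 of 5 Srebf1 KO and 5 of 7 Tbx3 KO livers, with median ratios of 0.507, 1.86 and 1.67.

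Slco1b2, the main hepatic OATP of the mouse, had the highest FPKM of the set in all 6 groups. Bcl6 KO livers held 3660.4, 3988, 3739, 3867 and 4852 FPKM, and controls 3543 to 7024 with a median of 5531. All 5 Bcl6 KO livers were below the control mean and above the lowest control, sgGFP replicate 3. The log2 difference came to -0.47 ± 0.18 (SE; adjusted p = 0.136, limma), and it passed without sgGFP replicate 3 (-0.60, adjusted p = 0.0378) and without the 3 libraries that stood apart (adjusted p = 0.0197). With each library scaled to its median it was -0.39 (limma adjusted p = 0.438), and with quantile normalization -0.49 (adjusted p = 0.0665). Means were 6896 ± 857 FPKM in Irs1 KO, 6747 ± 1877 in Smyd2 KO, 7069 ± 948 in Srebf1 KO and 5104 ± 838 in Tbx3 KO livers, against 5692 ± 1283 in controls (SD), and none of these passed the test. The lowest Smyd2 KO and Tbx3 KO values, 3233 and 3429 FPKM, came from replicates 6 and 7.

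**Figure D2:**
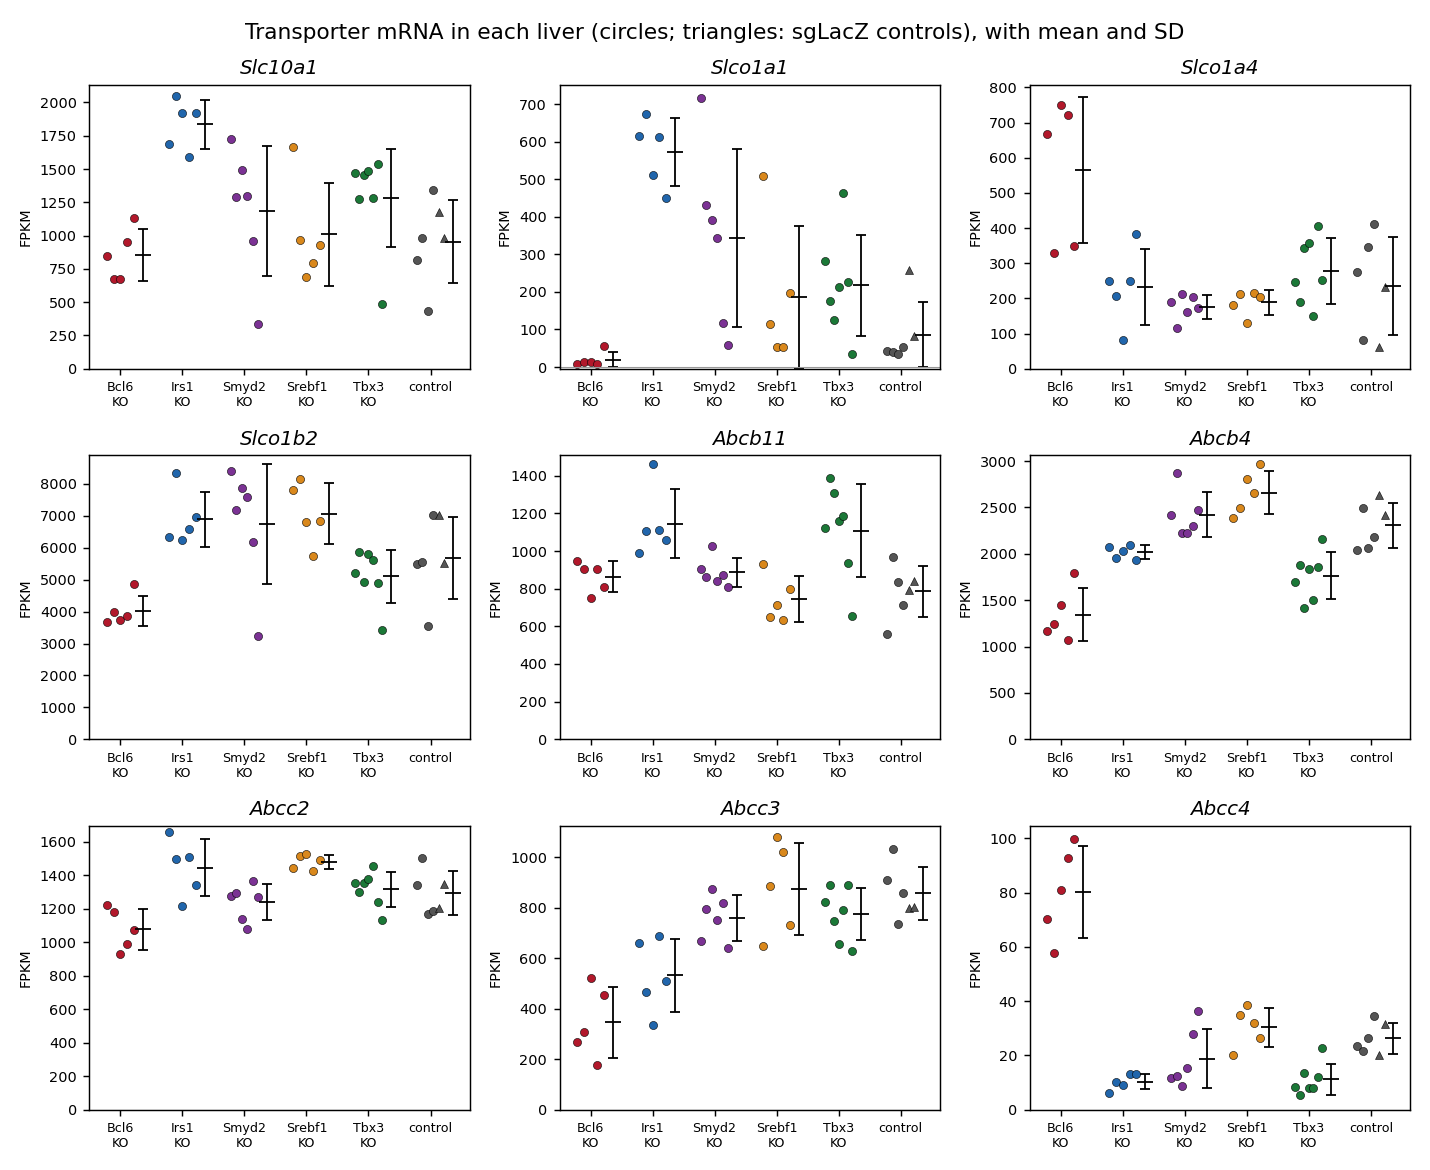
FPKM of each transporter mRNA in every liver, by knockout and in the controls (rightmost, with sgLacZ livers as triangles); bars are the mean and SD. The 5 Irs1 KO livers lie above all controls for Slc10a1, Slco1a1 and Abcb11, and the 5 Bcl6 KO livers lie above them for Abcc4 and below them for Abcb4 and Abcc3.

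Abcb11, the bile salt export pump, had 988, 1106, 1463, 1112 and 1058 FPKM in Irs1 KO livers, against 562 to 967 FPKM with a median of 814 in control livers. The groups did not overlap. The log2 difference came to 0.55 ± 0.15 (SE; adjusted p = 0.0134, limma), and without the highest liver, Irs1 KO replicate 3, it was 0.46 (adjusted p = 0.0538). Tbx3 KO livers ranged from 654 to 1386 FPKM with a median of 1162, and 5 of the 7 lay above every control. Their log2 change of 0.48 ± 0.13 had a limma adjusted p of 0.0459. That call was lost in 9 of the 13 cases with 1 liver left out, with adjusted p from 0.00165 to 0.147, and the lowest of these was without Tbx3 KO replicate 7 (0.60). The 9 are the cases without Tbx3 KO replicate 1, 2, 3, 4 or 5, without sgGFP replicate 1, 3 or 4, or without sgLacZ replicate 1. The call was also lost with no filter (0.0658), quantile normalization (0.0849), sgGFP controls alone (0.0606), these 2 groups alone (0.243) and no intensity trend (0.0692), all adjusted p from limma. Abcb11 averaged 863 ± 81.6 FPKM in Bcl6 KO, 886 ± 76.1 in Smyd2 KO and 745 ± 122 in Srebf1 KO livers, against 786 ± 137 in controls (SD), and none of these passed the test.

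Abcb4, the phosphatidylcholine flippase, had 1166, 1240.0, 1444, 1068 and 1789 FPKM in Bcl6 KO livers, against 2039.7 to 2639.6 FPKM with a median of 2299 in control livers. The groups were apart, and the log2 difference came to -0.80 ± 0.11 (SE; adjusted p = 4.2e-06, limma). Tbx3 KO livers ranged from 1420.3 to 2163 FPKM with a median of 1834. All but replicate 7 lay below every control, and the log2 change was -0.39 ± 0.10 (limma adjusted p = 0.0284). The Tbx3 call was lost in 5 of 13 cases with 1 liver left out (Tbx3 KO replicate 1, 3 or 5, sgGFP replicate 2 or sgLacZ replicate 1), with adjusted p of 0.00637 to 0.0830 over the 13, and it was lost when each library was scaled to its median (-0.26, adjusted p = 0.136), against sgGFP controls alone (0.111) and in a fit of these 2 groups alone (0.132). In Irs1 KO livers the values of 2075, 1954, 2033, 2094 and 1931 FPKM had the smallest SD of any group, 72.5 FPKM, and a log2 change of -0.19 (95% interval -0.41 to 0.03). Smyd2 KO livers averaged 2419.8 ± 243 FPKM and Srebf1 KO livers 2660.0 ± 234 (SD), and neither passed the test.

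Abcb4 and Abcb11 encode partners in bile formation, phospholipid and bile salt export, and their relative levels differed between groups. Abcb4 over Abcb11 was 1.18 to 2.21 in Bcl6 KO livers, 1.39 to 2.10 in Irs1 KO and 2.48 to 3.63 in control livers. The ratio had a median of 1.51 in Tbx3 KO livers, where replicate 7 reached 3.31. It was 2.16 to 3.32 in Smyd2 KO and 2.56 to 4.19 in Srebf1 KO livers. These ratios are descriptions and were not tested.

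Abcc2, the exporter of conjugated bilirubin, varied least among the 9, with 928 to 1658 FPKM over all livers. Bcl6 KO livers held 1221, 1179, 928, 989.8 and 1072 FPKM, against 1170.3 to 1505 with a median of 1272 in controls. Replicates 1 and 2 reached into the control range, and the log2 change of -0.26 ± 0.09 did not pass (limma adjusted p = 0.0623). It passed without Bcl6 KO replicate 1 (adjusted p = 0.0423) or sgGFP replicate 3 (0.0481). With each library scaled to its median it was -0.18 (limma adjusted p = 0.485), and with quantile normalization -0.28 (adjusted p = 0.0508). Means in the other knockouts ran from 1238 FPKM in Smyd2 KO to 1479.7 in Srebf1 KO livers, against 1293 in controls. None passed the test, although Irs1 KO did when each library was scaled to its median (0.39, adjusted p = 0.0225).

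Abcc3, the basolateral exporter MRP3, was lowest in Bcl6 KO livers, with 269, 306, 524, 179 and 454 FPKM, against 737 to 1033 with a median of 831 in control livers. The highest Bcl6 KO liver was well below the lowest control, and the log2 difference came to -1.40 ± 0.19 (SE; adjusted p = 5.6e-06, limma). Irs1 KO livers held 660.2, 465, 337, 690.1 and 511 FPKM, also all below the controls. Their log2 change was -0.72 ± 0.19 (limma adjusted p = 0.0144). It did not pass without Irs1 KO replicate 3 (-0.57, adjusted p = 0.0628) or with each library scaled to its median (-0.49, adjusted p = 0.106). Abcc3 averaged 759 ± 90.3 FPKM in Smyd2 KO, 875 ± 183 in Srebf1 KO and 776 ± 104 in Tbx3 KO livers, against 858 ± 104 in controls (SD), and none of these passed.

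Abcc4, the basolateral exporter MRP4, had the lowest FPKM of the set in every group but Bcl6 KO, and its groups fell into a wide order. Bcl6 KO livers held 70.4, 57.6, 80.9, 92.7 and 99.8 FPKM. Control livers held 20.3 to 34.6 FPKM with a median of 24.9. All 5 Bcl6 KO livers were above every one of the other 29 livers, and the log2 difference came to 1.57 ± 0.29 (SE; adjusted p = 0.000491, limma), a 2.97-fold higher level. Irs1 KO livers held 6.25, 10.3, 9.19, 13.2 and 13.0 FPKM, all below the controls, with a log2 change of -1.28 ± 0.29 (limma adjusted p = 0.00496). Tbx3 KO livers held 5.53 to 22.6 FPKM with a median of 8.27, and 6 of 7 were below every control. Their log2 change was -1.26 ± 0.27 (limma adjusted p = 0.00752), and in a fit of these 2 groups alone the adjusted p was 0.0565. Smyd2 KO livers ranged from 8.86 to 36.4 FPKM with a median of 13.9 (log2 change -0.61, adjusted p = 0.652), and Srebf1 KO livers held 20.2, 34.9, 38.4, 31.9 and 26.3 FPKM (0.19, adjusted p = 0.827). The lowest Srebf1 KO value came from replicate 1 and the highest Smyd2 KO value from replicate 6.

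The scale bears on some of these directions. Scaling each library to its median moved the median log2 change of all genes by 0.23 in the Irs1 comparison, 0.13 in the Srebf1 and Tbx3 comparisons and 0.08 in the Bcl6 comparison. Relative to the median of all genes, the Irs1 KO changes were 1.14 for Slc10a1, 3.24 for Slco1a1, 0.67 for Abcb11, -0.60 for Abcc3 and -1.16 for Abcc4. Higher calls made up 29.8% of all calls in Irs1 KO livers as deposited, 69.4% after median scaling and 49.3% after quantile normalization. The same 3 shares were 48.1%, 66.2% and 59.3% in Bcl6 KO, 52.1%, 70.7% and 57.7% in Srebf1 KO and 45.9%, 69.8% and 49.6% in Tbx3 KO livers. Signs of all 12 member calls were kept under both scalings.

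Knockouts were also compared with each other, in the same fit, where the control livers enter the estimate of the spread but not the difference. In an F test among the 5 knockouts, 8 of the 9 members differed (14.5% of all genes did), with adjusted p from 1.6e-08 for Abcc4 to 0.0197 for Slco1a4. Slc10a1 did not pass (adjusted p = 0.104), and it passed without Smyd2 KO replicate 6 (0.0238) or Tbx3 KO replicate 7 (0.0305). The Slco1a4 result was lost without Bcl6 KO replicate 1, 3 or 4, where the adjusted p was 0.0642 to 0.0722.

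Between Bcl6 KO and Irs1 KO livers 8 of 9 members were called, against 11.3% of all genes. Slco1a1 differed most, by a log2 of -5.17 ± 0.67 (SE, limma adjusted p = 1.0e-06), and Abcc4 differed by 2.85 ± 0.31 (adjusted p = 2.8e-08). Slc10a1 (-1.12), Slco1b2 (-0.78), Abcb4 (-0.61), Abcc2 (-0.42) and Abcc3 (-0.67) were also lower in Bcl6 KO than in Irs1 KO livers, and Slco1a4 was higher (1.34). Abcb11, at -0.40, had an adjusted p of 0.0858. Bcl6 KO differed from Srebf1 KO in 7 members, from Smyd2 KO in 6 and from Tbx3 KO in 5, against 8.76%, 5.83% and 9.31% of all genes. Abcb4, Abcc3 and Slco1a1 were lower and Abcc4 higher in Bcl6 KO livers than in each of the other 4 knockouts.

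Among the other 4 knockouts fewer members differed. Irs1 KO differed from Srebf1 KO in Abcb11 (0.62, limma adjusted p = 0.0250) and Abcc4 (-1.47, adjusted p = 0.00760), where 1.6% of all genes were called. Irs1 KO differed from Smyd2 KO and from Tbx3 KO in 0 members, against 4.26% and 2.81% of all genes, and 3896 and 2922 genes had an unadjusted p under 0.05 in limma. Smyd2 KO and Srebf1 KO also differed in 0 members, against 0.0777% of all genes, with 1808 at an unadjusted p under 0.05. Smyd2 KO livers had more Abcb4 than Tbx3 KO livers (0.46, adjusted p = 0.0152), where 0.902% of all genes were called. Srebf1 KO livers had more Abcb4 (0.60, adjusted p = 0.000959) and Abcc4 (1.44, adjusted p = 0.00375) and less Abcb11 (-0.55, adjusted p = 0.0477) than Tbx3 KO livers, where 0.943% of all genes were called.

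With the 6 groups put in order of mean log2(FPKM + 1), most steps between neighbours did not pass the test. A step that did not pass is not shown to be absent. Irs1 KO and Tbx3 KO livers, neighbours for Slc10a1, did not overlap, yet the step did not pass (0.59, limma adjusted p = 0.372). Slco1a1 ran, high to low, Irs1 KO, Smyd2 KO, Tbx3 KO, Srebf1 KO, control, Bcl6 KO, with no pair of neighbours passing the test. Abcc4 ran Bcl6 KO, Srebf1 KO, control, Smyd2 KO, Tbx3 KO, Irs1 KO, with the step between Bcl6 KO and Srebf1 KO passing (1.38, limma adjusted p = 0.00277). Abcb4 ran Srebf1 KO, Smyd2 KO, control, Irs1 KO, Tbx3 KO, Bcl6 KO, and the last step passed (0.41, adjusted p = 0.0101). Abcc3 ran Srebf1 KO, control, Tbx3 KO, Smyd2 KO, Irs1 KO, Bcl6 KO, and here too the last step passed (0.67, adjusted p = 0.0261). For Slc10a1, Slco1a4, Slco1b2, Abcb11 and Abcc2 no step between neighbours passed. Irs1 KO was highest for Slc10a1 and Abcb11, Bcl6 KO for Slco1a4, and Srebf1 KO for Slco1b2 and Abcc2.

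Of the 4 uptake carriers, 3 varied together from liver to liver inside the groups, and Slco1a4 did not vary with them. With group means removed, Slc10a1 and Slco1b2 had a Pearson r of 0.90 (Spearman rho 0.78) over 34 livers, Slc10a1 and Slco1a1 an r of 0.77 (rho 0.72), and Slco1a1 and Slco1b2 an r of 0.73 (rho 0.67). Without the 3 libraries that stood apart these were 0.81, 0.53 and 0.60 over 31 livers. Abcc4 ran the other way, with an r of -0.60 to Slco1a1, -0.57 to Slc10a1, -0.55 to Slco1b2 and -0.51 to Abcb11. Spearman rho was -0.58, -0.36, -0.40 and -0.44 for the same pairs. Without the 3 libraries r was -0.30, -0.04, -0.15 and -0.26 in that order. Slco1a4 had an r of -0.07 to Slc10a1, -0.28 to Slco1a1 and -0.17 to Slco1b2, and without the 3 libraries -0.14, -0.39 and -0.27. Abcb4 had an r of -0.12 to Slc10a1, 0.13 to Slco1a1 and 0.00 to Slco1b2. Without the 3 libraries these were 0.24, 0.54 and 0.29, so Slco1a1 then varied with Abcb4 about as closely as with Slc10a1. All values in a liver share 1 library and its depth, and these correlations are descriptions without a test.

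**Figure D3:**
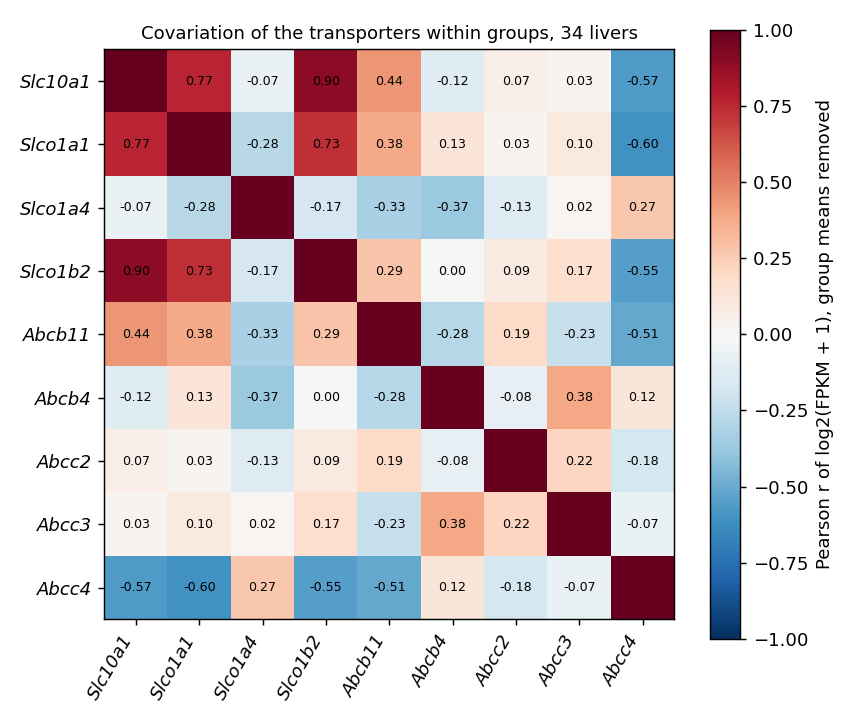
Pearson r between transporter mRNAs over 34 livers, on log2(FPKM + 1) with each group's mean removed. Slc10a1, Slco1a1 and Slco1b2 form a block of r from 0.73 to 0.90, and Abcc4 is negative to these 3 and to Abcb11.

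**Figure D4:**
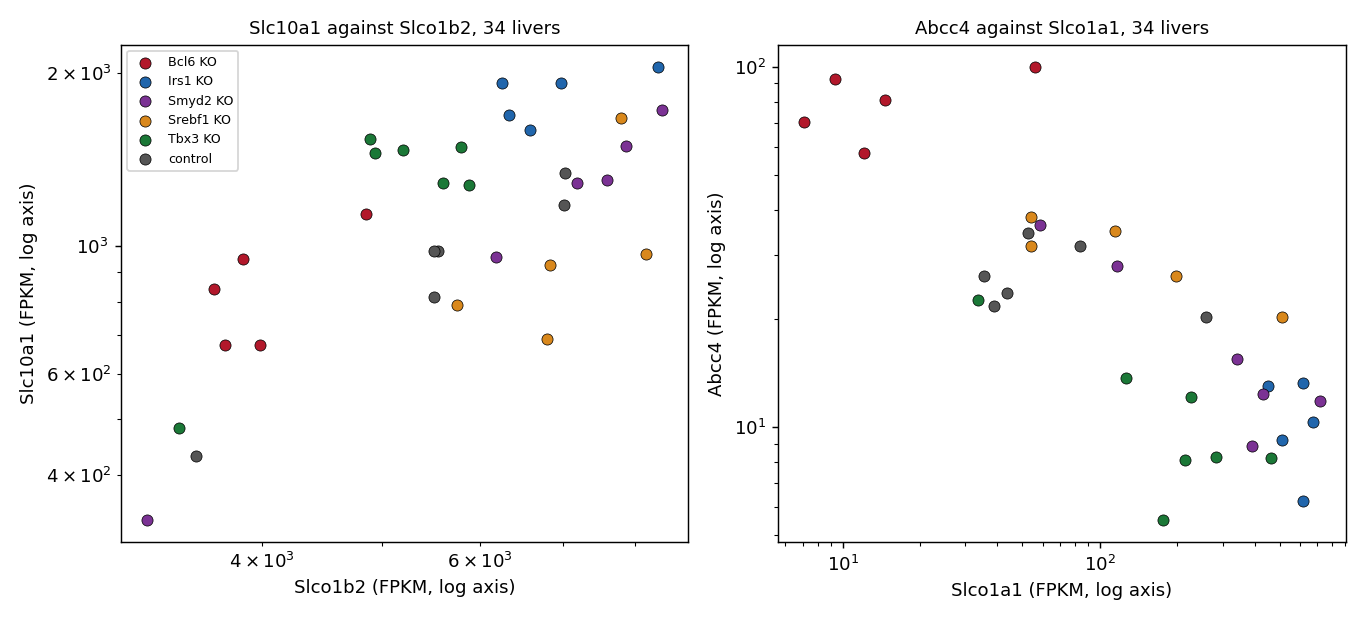
FPKM of Slc10a1 against Slco1b2 (left) and of Abcc4 against Slco1a1 (right) in the 34 livers, coloured by group, on log axes. Bcl6 KO livers sit at low Slco1a1 with Abcc4 of 57.6 FPKM or more, and Irs1 KO livers at Slco1a1 of 451 FPKM or more with Abcc4 of 13.2 or less.

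For the 7 members called in some knockout, the genes with the most similar profile over the 34 livers, group differences included, were looked up. Slco1a1 was most like Mup14 and Mup7, major urinary protein genes, and Phyh, which encodes a peroxisomal hydroxylase, with r of 0.93, 0.93 and 0.92. Abcc4 was most like Cyp2a4, a female-biased steroid hydroxylase gene of mouse liver (0.91), Nt5e (0.88) and Slc22a27 (0.86). Slc10a1 was most like Ephx2 (0.87), Slc27a5 (0.86), which encodes the ligase that activates bile acids for conjugation, and Cyp2c54 (0.85). Abcb11 was most like Ceacam1, a canalicular adhesion molecule (0.83), Abcb4 like Tsc22d1 (0.86), Abcc3 like Ces2e (0.86) and Slco1a4 like Nipal1 (0.75). With group means removed, r to Abcc4 was 0.63 for Cyp2a4, 0.26 for Nt5e and 0.39 for Slc22a27. For the genes named with Slco1a1 it was then 0.82, 0.87 and 0.85, and with Slc10a1 0.89, 0.91 and 0.87. For Ceacam1, Tsc22d1, Ces2e and Nipal1 it was 0.74, 0.43, 0.70 and 0.63. Mup, Cyp2 and Slc22 genes have near-identical relatives that may share reads.

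Among 14 genes of bile acid synthesis and conjugation, 2 were higher and 3 lower in Bcl6 KO livers, where 2.95% of all genes were higher and 3.19% lower. In Irs1 KO livers 4 were higher and 1 lower, where 3.24% of all genes were higher and 7.61% lower. In Bcl6 KO livers Akr1d1, the steroid reductase of bile acid synthesis, rose by a log2 of 1.42 (adjusted p = 0.000115) and Cyp2c70, which makes muricholic acids in mice, by 1.34 (adjusted p = 0.000126). Scp2, which shortens the side chain in peroxisomes, changed by -1.02 (adjusted p = 1.1e-06) and Hsd3b7 by -0.58 (adjusted p = 0.0188). In Irs1 KO livers Cyp7b1, the oxysterol hydroxylase of the alternative pathway, rose by 2.21 (adjusted p = 0.00270), Cyp2c70 by 0.93 and Amacr by 0.53, while Hsd17b4 changed by -0.44. Cyp2c70 was the 1 gene of the list called in Tbx3 KO livers (0.81, adjusted p = 0.0284), where 2.54% of all genes were called. Cyp7a1, the rate-limiting enzyme, was not called in Bcl6 KO livers at 683 ± 287 FPKM, against 420.2 ± 337 in controls (SD, adjusted p = 0.264). The median log2 change of the list was -0.14, 0.32, 0.13, 0.29 and 0.18 in Bcl6, Irs1, Smyd2, Srebf1 and Tbx3 KO livers, beside -0.07, -0.12, -0.00, -0.05 and -0.06 for all genes.

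Of 14 regulators of bile acid transport, Hnf4a, a nuclear receptor that sets hepatocyte identity, was higher in Bcl6 KO (0.42, limma adjusted p = 0.000369), Irs1 KO (0.50, adjusted p = 9.6e-05) and Tbx3 KO livers (0.36, adjusted p = 0.00341). Irs1 KO livers had 4 regulators higher and 0 lower, the others being Rxra (0.49), the shared partner of many nuclear receptors, Nr5a2 (0.41) and Fgfr4 (0.67), the hepatic receptor of the intestinal hormone FGF15. Tbx3 KO livers had 2 higher, Hnf4a and Nr5a2 (0.36), and 1 lower, Ahr (-0.75), the dioxin receptor. Of all genes, 3.24% were higher and 7.61% lower in Irs1 KO livers. These shares were 1.17% and 1.37% in Tbx3 KO and 2.95% and 3.19% in Bcl6 KO livers. Nr1h4, which encodes the bile acid receptor FXR, and Nr0b2, which encodes its target SHP, were called in none of the 5 knockouts.

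Of 23 other transporters of bile acids, sterols and organic ions, 20 were tested. Irs1 KO livers had 6 of these genes higher and 2 lower, where 3.24% of all genes were higher and 7.61% lower. Among the higher ones Slc22a7, an organic anion carrier, rose by a log2 of 2.27 and reached 23.6 ± 13.4 FPKM, against 3.85 ± 1.71 FPKM in controls (SD, adjusted p = 0.000570). Atp8b1, the canalicular aminophospholipid flippase, rose by 0.54 and the sterol exporter gene Abcg8 by 1.17, while the drug exporter gene Abcb1a fell by 1.89 (adjusted p = 1.8e-05). Bcl6 KO livers had 0 higher and 2 lower, the epoxide hydrolase gene Ephx1 (-0.56) and the urate and drug exporter gene Abcg2 (-0.54). There 2.95% of all genes were higher and 3.19% lower. Abcb1a was lower in Tbx3 KO livers as well (-0.98, adjusted p = 0.0159), where 1.37% of all genes were lower. Among 10 genes of the canalicular scaffold and of vesicle traffic to it, Irs1 KO livers had 2 higher (Slc9a3r1, 0.71, and Rdx, 0.26) and 2 lower (Myo5b, -0.39, and Msn, -0.76). The shares of all genes in Irs1 KO livers were again 3.24% higher and 7.61% lower. Myo5b, the motor that carries transporters to the canalicular membrane, was also lower in Tbx3 KO livers (-0.29, adjusted p = 0.0468). In Smyd2 KO and Srebf1 KO livers no gene of these 4 lists was called, where 0% and 0.378% of all genes were.

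**Figure D5:**
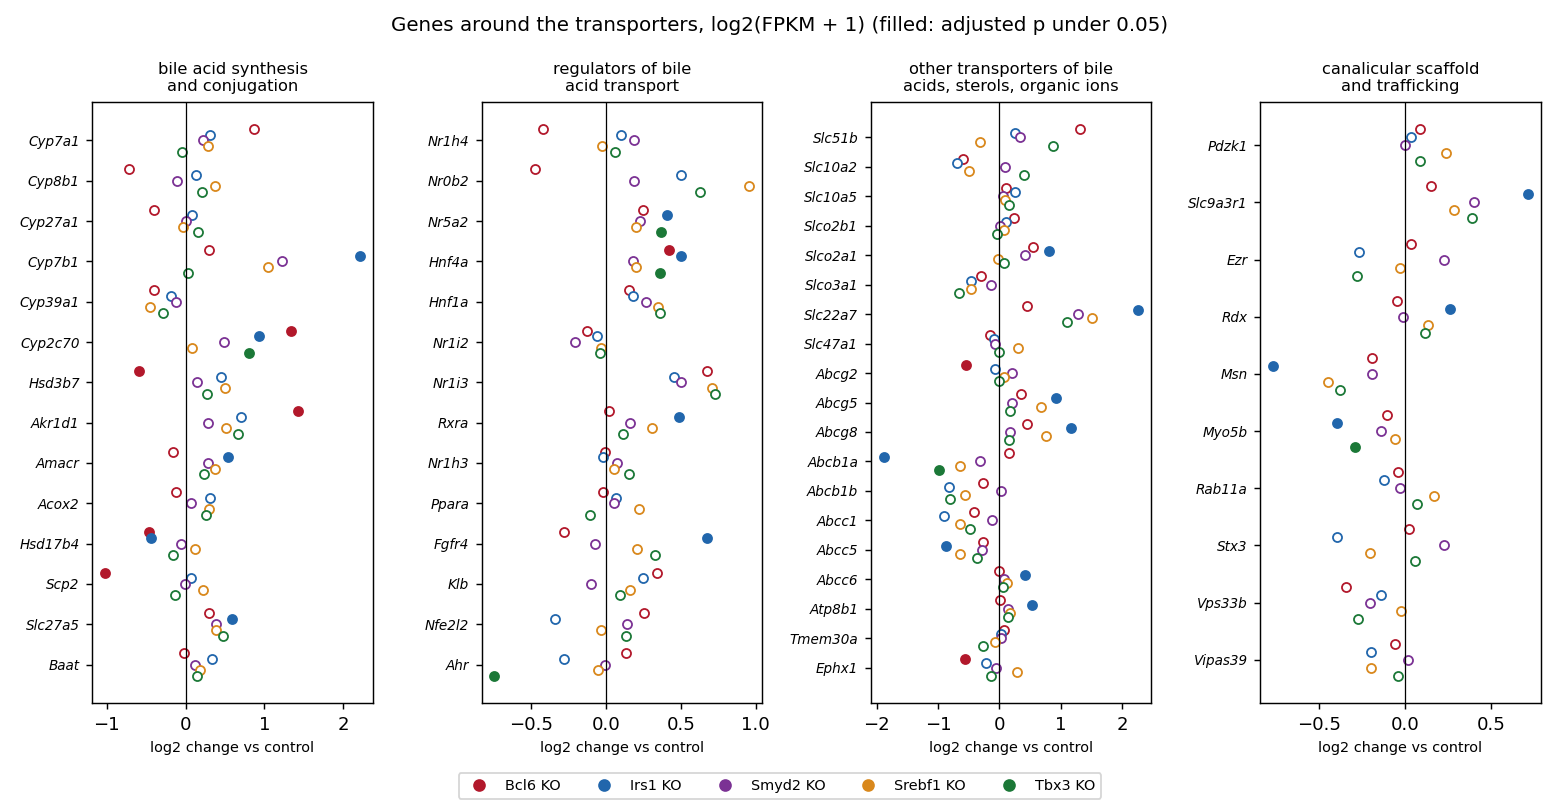
Log2 change against control of tested genes in 4 lists around bile acid transport, 1 gene left out, coloured by knockout, on the log2(FPKM + 1) scale; filled points have an adjusted p under 0.05. Filled points of Irs1 KO are the most frequent, from -1.89 for Abcb1a to 2.27 for Slc22a7.

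Other marker lists moved beside the transporters, and their part in these results was not tested. The counts stand beside shares of all genes called of 6.14% in Bcl6 KO, 10.9% in Irs1 KO, 0.378% in Srebf1 KO and 2.54% in Tbx3 KO livers. In Bcl6 KO livers 10 of 12 female-biased liver genes were higher and 0 lower, and the sum of the list was 9703 to 17288 FPKM, against 198 to 1350.2 FPKM in controls. In the controls 2 of these 12 genes were listed at 0 in every liver, as they were in the other 4 knockouts. These 2 could pass the filter on low values only through the 5 Bcl6 KO livers. A call of higher for them was therefore set by the filter and is not a result. Of 12 male-biased genes 8 were lower there and 0 higher, with a sum of 438 to 5135 FPKM, against 6998 to 24633 in controls. In Irs1 KO livers 7 of the male-biased genes were higher and 0 lower, with a sum of 10791 to 30692 FPKM. Cyp7b1 belongs to that list and to the list of bile acid synthesis. Of 8 periportal hepatocyte genes, 3 were higher and 1 lower in Bcl6 KO, 5 higher in Irs1 KO and 6 higher in Tbx3 KO livers. Of 8 pericentral genes, 1 was higher in Bcl6 KO, 2 in Irs1 KO and 1 in Tbx3 KO livers. Hepatocyte markers were higher in 5 of 8 cases in Bcl6 KO and 4 of 8 in Irs1 KO livers and in 1 of 8 in Srebf1 KO livers, while 1 of 8 was lower in Tbx3 KO livers.

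Markers of cells other than hepatocytes moved as well. Among 6 recruited macrophage markers 4 were lower in Irs1 KO livers, with a sum of 128 to 282 FPKM, against 266 to 913 FPKM in controls. Among 6 stellate cell markers 4 were lower in Irs1 KO, 2 in Tbx3 KO and 1 in Bcl6 KO livers. The sum of the 8 cholangiocyte markers was 470 to 1147 FPKM in Bcl6 KO, 296 to 558 in Irs1 KO and 364 to 1934 in Tbx3 KO livers, against 733 to 3093 in controls, and 1 of the 8 was lower in each. Cholangiocytes also express Abcc3 and Abcc4. No marker of these 3 lists was at 0 in all livers of a group. Endothelial markers were higher in 3 of 6 cases in Bcl6 KO livers and lower in 2 of 6 in Irs1 KO livers. The sum of 5 erythroid genes was 508 to 723 FPKM in Irs1 KO and 492 to 649.98 FPKM in Srebf1 KO livers, against 302 to 472 FPKM in controls. In Bcl6 KO livers it was 237 to 367 FPKM. The median log2 change of the 5 was -0.22 in Irs1 KO, 0.11 in Srebf1 KO and 0.31 in Bcl6 KO livers. In Irs1 KO livers the sum and the median thus went opposite ways. Of these 5, Alas2, which encodes the erythroid enzyme that starts heme synthesis, was called higher in Irs1 KO and Srebf1 KO livers and lower in Bcl6 KO livers, and the 4 globin genes were not called. Alas2 was named after its values were seen. No Kupffer cell, lymphocyte or neutrophil marker was called in any knockout.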

How the data were processed

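RNA of 34 mouse livers was sequenced as total RNA, extracted with TRIzol and RNeasy columns and made into libraries with a SMARTer stranded kit, per the labels' protocols. The deposited values are FPKM made by the authors. The counter was featureCounts 1.6.4, and builds mm10 and GRCh38 are named without a role, both per the submitters' processing notes. Which aligner, annotation and strandedness were used is not given in the sources used here.

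From these values log2(FPKM + 1) was computed where at least 5 libraries reached an FPKM of 1. One limma fit (3.58.1, R 4.3.3, intensity trend) over 6 groups gave two-sided tests, adjusted over 19295 genes, as well as pairwise contrasts and an F test among knockouts. Fold changes on this scale understate low genes. Depth was inferred from the steps of low values. The fit was tested on simulated data.

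Members and gene lists were chosen with earlier results of these data known. Genes named besides the 9 members were the targeted genes, up to 4 called genes per list and comparison by smallest adjusted p, and the 3 most similar genes of each called member. One list gene is not reported here. Marker genes are counted, and Cyp7a1, Nr1h4 and Nr0b2 were named after their values were seen. Equal replicate numbers did not pair the livers: same-numbered livers of different groups had a mean r of -0.00 over 81 pairs. Alternatives are listed in the closing section.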

Additional observations from a re-analysis of the deposited data

Results flagged for a closer look

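In 7 cases a liver stood far from the rest of its group by Dixon's criterion, over 54 groups of values examined, where chance alone marks about 1 group in 20. Slc10a1 was 1667 FPKM in Srebf1 KO replicate 1, the highest of 5, and 484 FPKM in Tbx3 KO replicate 7, the lowest of 7. Slco1a1 was 55.9 FPKM in Bcl6 KO replicate 5, the highest of 5, and 258 FPKM in sgLacZ replicate 1, the highest of the 6 controls. Slco1b2 was 4852 FPKM in Bcl6 KO replicate 5 and 3429 FPKM in Tbx3 KO replicate 7. Abcb11 was 1463 FPKM in Irs1 KO replicate 3. Bcl6 KO replicate 5 was thus high for both Slco1a1 and Slco1b2, and Tbx3 KO replicate 7 low for both Slc10a1 and Slco1b2.

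Levels differed among the 5 knockout groups for 8 members, by limma's F test adjusted over all genes. Of all genes, 14.5% did so. The adjusted p was 1.6e-08 for Abcc4, 2.0e-07 for Abcb4, 9.9e-06 for Abcc3 and 1.1e-05 for Slco1a1. It was 0.00173 for Abcc2, 0.00650 for Slco1b2, 0.0121 for Abcb11 and 0.0197 for Slco1a4. Most pairwise differences involved Bcl6 KO livers, which differed from each other knockout in 5 to 8 members (5.83% to 11.3% of all genes). Pairs of the other knockouts differed in 0 to 3 members (0.0777% to 4.26% of all genes). The cause of these differences was not tested.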

How the results depend on the processing

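The calls of Abcb4, Abcc3 and Abcc4 in Bcl6 KO livers and of Slco1a1 and Abcc4 in Irs1 KO livers passed under every alternative run. A pseudocount of 0.1 and a filter at 5 FPKM each changed 1 member call, that of Slco1a1 in Bcl6 KO livers, which then passed (adjusted p = 0.0463 and 0.0431). With no filter on low values, quantile normalization, sgGFP livers alone, the 2 groups alone or no intensity trend, 0 members were higher in Tbx3 KO livers. In these settings 191, 230, 271, 44 and 181 of all genes were higher there, in that order. With median scaling 1 member was lower in Irs1 KO and 1 in Tbx3 KO livers, where 743 and 165 of all genes were lower. As deposited these were 1469 and 265. With sgGFP livers alone as control, 1 member was higher in Bcl6 KO and 1 was lower in Tbx3 KO livers. Of all genes, 507 were then higher in Bcl6 KO and 304 lower in Tbx3 KO livers. In Smyd2 KO livers 12 genes were called against these controls and in Srebf1 KO livers 152. In fits of 2 groups alone, 1 member was higher in Bcl6 KO and 0 were lower in Tbx3 KO livers, and 750 genes were called in Bcl6 KO, 10 in Srebf1 KO and 96 in Tbx3 KO livers. Of the genes called, 437 were higher in Bcl6 KO and 52 lower in Tbx3 KO livers. With no intensity trend 44 genes were called in Srebf1 KO livers. Without the 3 libraries that stood apart, 4 members were lower in Bcl6 KO, 1 was higher in Smyd2 KO and 3 were higher in Tbx3 KO livers. Genes called were then 1440 in Bcl6 KO, 23 in Smyd2 KO, 113 in Srebf1 KO and 1664 in Tbx3 KO livers. Of these, 787 were lower in Bcl6 KO, 14 higher in Smyd2 KO and 556 higher in Tbx3 KO livers.

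With the replicate number as a block, which does not pair these livers, 133 genes were called in Srebf1 KO and 1931 in Tbx3 KO livers, and 3 members were higher in Tbx3 KO livers, where 597 of all genes were higher. Only Tbx3 KO has a replicate 7, so this block takes that library out of the Tbx3 KO difference. Leaving replicate 7 out without a block gave 1471 genes called. With the block, Slco1a1 in Bcl6 KO livers had a limma adjusted p of 0.0286, while Abcc3 in Srebf1 KO (-0.0075) and Slco1b2 in Tbx3 KO livers (0.086) changed sign.

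Other sign changes were all of members not called. They were Abcb4 in Irs1 KO (0.044), Slco1a4 (0.094) and Abcb11 (0.057) in Srebf1 KO with median scaling, and Abcc3 in Srebf1 KO (-0.032) and Abcc2 in Tbx3 KO (-0.070) with quantile normalization. With sgGFP livers alone they were Slc10a1 in Bcl6 KO (0.020), Slco1a4 in Irs1 KO (-0.19) and Abcc3 in Srebf1 KO (-0.033), and without the 3 libraries Slc10a1 in Srebf1 KO (-0.11).

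With 1 liver left out at a time, log2 changes that crossed 0 were -0.32 to 0.0078 for Slc10a1 in Bcl6 KO, -0.18 to 0.48 for Slco1a4 in Irs1 KO, -0.45 to 0.087 for Slco1a4 in Smyd2 KO and -0.00059 to 0.072 for Abcc2 in Tbx3 KO livers. In Srebf1 KO livers they were -0.12 to 0.21 for Slc10a1, -0.35 to 0.19 for Slco1a4 and -0.072 to 0.11 for Abcc3. Members higher numbered 1 to 2 in Bcl6 KO, 1 to 3 in Irs1 KO and 0 to 2 in Tbx3 KO livers. Members lower numbered 2 to 5 in Bcl6 KO, 1 to 2 in Irs1 KO and 1 to 2 in Tbx3 KO livers. Genes called ran from 743 to 1204 in Bcl6 KO, 1424 to 2185 in Irs1 KO and 258 to 1471 in Tbx3 KO livers. In Smyd2 KO livers they ran from 0 to 4 and in Srebf1 KO livers from 14 to 110. The adjusted p of the F test ran from 0.0238 to 0.199 for Slc10a1 and from 0.0127 to 0.0722 for Slco1a4. The cause of these changes was not tested, other than fewer livers or fewer genes in the fit.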

Other observations

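Abcb11 and Abcc3 send bile acids in opposite directions, into bile and back into blood, and their ratio was looked at after the values were seen. Abcb11 over Abcc3 exceeded 1 in 5 of 5 Bcl6 KO livers, where it was 1.43 to 5.06, and in 5 of 5 Irs1 KO livers, where it was 1.497 to 4.34. It exceeded 1 in 6 of 6 Smyd2 KO, 2 of 5 Srebf1 KO and 7 of 7 Tbx3 KO livers, against 2 of 6 control livers, where it was 0.616 to 1.13. In Bcl6 KO livers Abcc3 was the member of the pair that was called, and in Irs1 KO livers both were. The ratios were not tested, and FPKM of different genes are only roughly comparable.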
